A study of Mus musculus with 4 samples.

Results

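Collagens are trimeric proteins of the extracellular matrix, and the chains of types I, II, IX, X and XI build cartilage and bone. The remaining chains were examined here at the level of chromatin, in 31 genes. They were taken as a list of gene symbols, and all 31 were found among the 18098 protein-coding genes that carry the same symbol in both annotations used. They fall into other fibrillar chains (Col3a1, Col5a1, Col5a2, Col5a3, Col24a1, Col27a1), beaded filament chains (Col6a1, Col6a2, Col6a3, Col28a1) and chains of basement membranes and anchoring fibrils (Col4a1 to Col4a6, Col7a1). The others are network chains (Col8a1, Col8a2), fibril-associated chains (Col12a1, Col14a1, Col16a1, Col19a1, Col20a1, Col22a1), transmembrane chains (Col13a1, Col17a1, Col23a1, Col25a1) and multiplexins (Col15a1, Col18a1).

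As background, fibrillar collagens carry tensile load, type IV collagen forms the sheet of basement membranes, and fibril-associated collagens sit on the surface of fibrils and tune their spacing. Type VI collagen makes beaded filaments close to the cell and is a known part of the matrix that surrounds each chondrocyte. Col27a1 is known as a fibrillar collagen gene of cartilage, so the list is not without cartilage genes. ATAC-Seq records where the Tn5 transposase can insert into chromatin, so a peak at a gene shows access and not transcription.

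The cells were primary chondrocytes from the rib cartilage of newborn mice, freed with collagenase and used within 2 passages. Cho had 2 replicates with no genotype label, WT had 1 library, and E160(delta/delta);E308(delta/delta), called the enhancer-deletion library here, had 1 library. E160 and E308 are enhancers upstream of Sox9, the gene for a cartilage transcription factor, and both were removed from both alleles by CRISPR/Cas9 editing of C57BL/6J embryos in 2 rounds. All 4 libraries came from the same tissue and kind of cell, and the paper describes the WT and deletion mice as littermates. Whether the cells of any libraries were prepared together is not stated. Nothing in the labels states how many animals were pooled, and the genotypes were compared as 2 libraries with no test.

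Peaks numbered 76242 and 148330 for Cho replicates 1 and 2, 90971 for WT and 169591 for the enhancer-deletion library. Values are given in that order unless stated. The deposited fold enrichment is the summit pileup plus 1 over the background plus 1, and it moves with depth, so the pileup solved from it is also given over each library's background, which was 1.37, 1.96, 0.361 and 0.626 fragments. In Cho replicate 1 nearly every entry was set against the same background, unlike in the other 3 lists. Its promoter calls covered 5 of 11 chondrocyte marker genes, against 10 of 11 in each of the other libraries, where Comp was without a peak. Fibroblast markers were called at 5, 7, 7 and 8 of 8 genes, endothelial markers at 3, 2, 3 and 3 of 6 with Cdh5, Emcn and Tie1 at none, skeletal muscle markers at 0, 2, 1 and 3 of 6, blood markers at 0, 1, 0 and 1 of 4 (Spi1 was not matched), and epithelial markers at 0, 3, 1 and 2 of 5. The part of other cell types in the collagen peaks was not tested.

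Most of the collagen promoters were accessible. A summit within 1 kb of the transcription start site (TSS) was present at 21 of 31 genes of Cho replicate 1 (67.7%, against 58.6% of all genes), 24 for Cho replicate 2 (77.4%, against 64.7%), 23 for WT (74.2%, against 62.0%) and 26 for the enhancer-deletion library (83.9%, against 67.8%). A promoter peak in all 4 libraries was found at 17 genes (54.8%), close to the 52.6% of all genes, and in both Cho replicates at 18 genes (58.1%, against 54.0%). Only 3 genes, Col4a6, Col17a1 and Col28a1, had none in any library (9.68%), where 28.2% of all genes had none. In Cho replicate 1 the order turned among stronger peaks: with a −log10 q of at least 5 it had 14 collagens (45.2%, against 52.6% of all genes), and all 4 libraries together then had 12 (38.7%, against 47.5%). The start was that of the gene record. With any annotated transcript start, 23, 25, 26 and 27 collagens were called (62.6%, 69.3%, 65.9% and 71.4% of all genes), and Col17a1 then had a peak in WT and Col28a1 in WT and the enhancer-deletion library.

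The 17 genes open in all 4 libraries were Col3a1, Col4a1, Col4a2, Col4a5, Col5a1, Col5a2, Col6a1, Col6a2, Col6a3, Col8a1, Col13a1, Col15a1, Col16a1, Col18a1, Col19a1, Col23a1 and Col25a1. Another 6 were open in 3 libraries (against 9.58% of all genes), 3 in 2 libraries (against 4.14%), and 2, Col7a1 and Col20a1, in 1 library (against 5.49%). Open collagen promoters were seldom strong ones. The fold enrichment exceeded the median of all called promoters, which ran from 12.25 for Cho replicate 1 to 17.61 for Cho replicate 2, at 3, 2, 2 and 3 of 31 collagens, where 28.8%, 32.3%, 31% and 33.9% of all genes exceeded it. Col5a2 was among them in every library, and Col6a2 in all but Cho replicate 1.

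**Figure D1:**
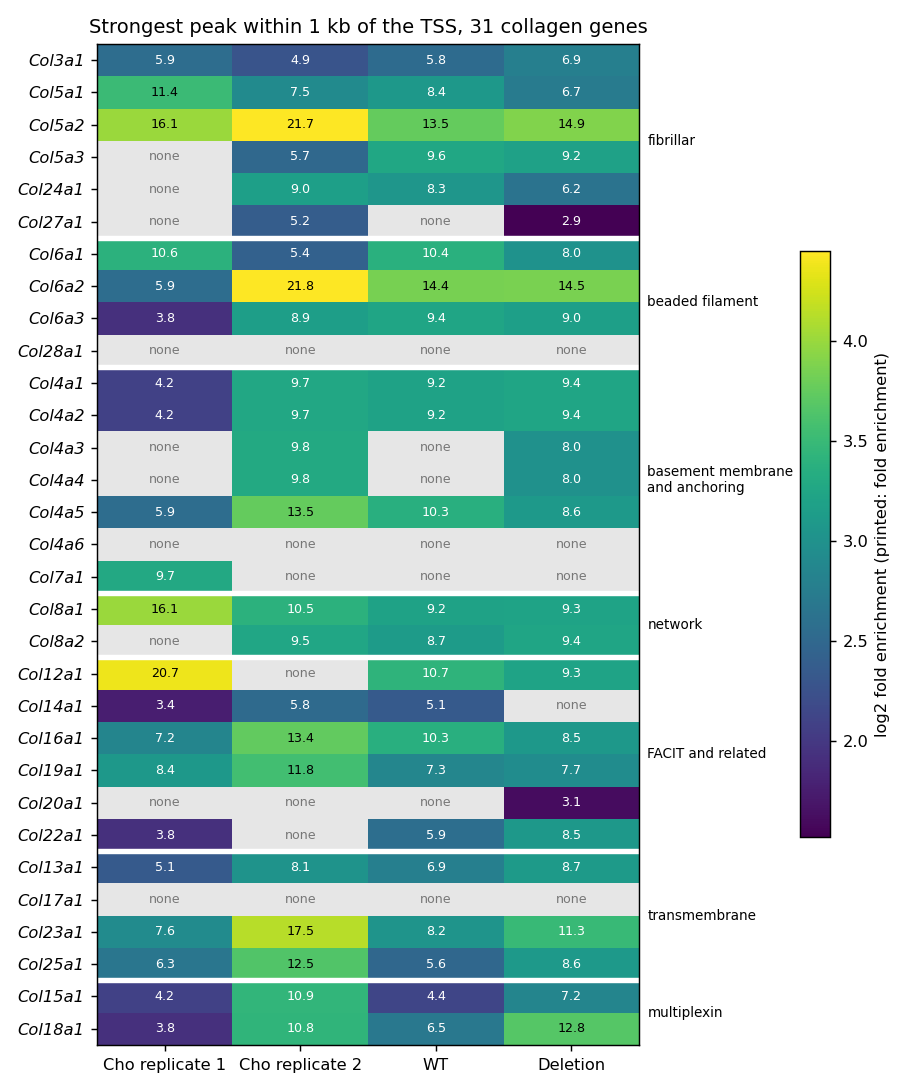
Fold enrichment of the strongest peak with a summit within 1 kb of the TSS, for 31 collagen genes (rows, grouped by class) in 4 libraries (columns). Colour is log2 fold enrichment and the fold enrichment is printed in each cell. Grey cells had no peak. Col5a2 and Col6a2 were highest in Cho replicate 2, at 21.7 and 21.8, and Col4a6, Col17a1 and Col28a1 were grey throughout.

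Among the fibrillar chains, Col5a2 had the strongest promoter. It encodes the alpha2 chain of type V collagen, which nucleates fibrils. Its fold enrichment was 16.1, 21.7, 13.5 and 14.9, from summit pileups of 37, 126, 26 and 43 fragments, all between 129 and 219 bp downstream of the TSS. Col5a1, the partner alpha1 chain, had 11.4, 7.54, 8.43 and 6.65. By pileup over background the order turned in 3 libraries, with 73.6 at Col5a1 against 64.4 at Col5a2 in Cho replicate 2, 119.0 against 72.1 in WT and 86.2 against 68.7 in the enhancer-deletion library. Col3a1, the fibrillar chain of skin and vessels, lies 24614 bp from Col5a2, and its promoter was much weaker, with fold enrichments of 5.91, 4.86, 5.80 and 6.86. Col5a3 and Col24a1 had no promoter peak in Cho replicate 1 and had 5.68, 9.56 and 9.15 (Col5a3) and 8.99, 8.31 and 6.18 (Col24a1) in the other 3.

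Col27a1 depended on the annotated start. At the gene record's 5′ end, fold enrichment was 5.22 in Cho replicate 2 and 2.86 in the enhancer-deletion library, and Cho replicate 1 and WT had no summit within 1 kb. About 1.4 kb downstream, where a second start is annotated, all 4 libraries had a peak, with fold enrichments of 5.07, 3.30, 6.98 and 4.90.

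Type VI collagen was open at all 3 of its chains here. Col6a2 had 5.91, 21.8, 14.4 and 14.5, Col6a1 had 10.6, 5.37, 10.4 and 8.03, and Col6a3 had 3.80, 8.90, 9.45 and 9.02. Cho replicate 2 ranked Col6a2 above Col6a1, and Cho replicate 1 ranked them the other way. In pileup over background, WT had 97.1 at Col6a1, 88.8 at Col6a2 and 66.6 at Col6a3, and the enhancer-deletion library 71.9, 71.9 and 59.1. Col28a1, a later addition to this group, had no promoter peak. Its nearest summits lay 3577 bp from the TSS in the enhancer-deletion library and 3579 bp in WT.

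Genes of type IV collagen lie head to head in pairs, and the pairs differed. Col4a1 and Col4a2, whose products form the common basement membrane network, overlap by 22 bp at their starts, so a shared peak served both. Its fold enrichment was 4.22, 9.70, 9.22 and 9.41. Col4a3 and Col4a4, whose products are typical of kidney and inner ear, have starts 71 bp apart and share a peak of 9.81 in Cho replicate 2 and 7.99 in the enhancer-deletion library. In Cho replicate 1 and WT the nearest summits to Col4a3 were 25565 bp and 8417 bp away. Col4a5 and Col4a6 start 1308 bp apart, and here the peak sat on Col4a5, with 5.91, 13.5, 10.3 and 8.61. That same peak was 1244 to 1353 bp from the start of Col4a6, just outside the 1 kb window, so the call for Col4a6 turned on the window alone. Col7a1, the anchoring fibril chain of skin, had a peak 332 bp upstream of its start in Cho replicate 1 (9.71), and in the other 3 libraries the nearest summit was 3835 to 4129 bp upstream.

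The DNA between the starts of Col4a4 and Col4a3 and the stretches upstream of Col5a2 and Col6a2, the strongest collagen promoters of WT in fold enrichment, are shown because they hold these peaks or border them. All are NCBIM37 and read 5′ to 3′ on the gene's strand, the first on the plus strand, and lie outside annotated exons. GGGCGG (the GC box), CCAAT and TATAAA were searched on both strands and had no match in these stretches, so none of their letters is in capitals. Over the longer span of 250 bp before and 50 bp after the TSS, Col6a2 did have a GC box.
Col4a4 to Col4a3, chr1:82583425-82583495, plus: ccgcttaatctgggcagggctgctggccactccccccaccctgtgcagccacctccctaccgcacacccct
Col5a2, chr1:45560128-45560247, minus: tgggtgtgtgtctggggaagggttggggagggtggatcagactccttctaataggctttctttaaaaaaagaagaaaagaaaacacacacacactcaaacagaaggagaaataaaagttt
Col6a2, chr10:76086376-76086495, minus: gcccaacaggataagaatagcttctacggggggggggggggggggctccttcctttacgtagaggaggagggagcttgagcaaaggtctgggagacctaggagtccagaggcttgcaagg
The stretches of Col5a2 and Col6a2 hold few CG pairs.

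The network chains of type VIII collagen, made by endothelial and corneal cells among others, were open in most libraries. Col8a1 had 16.1, 10.5, 9.19 and 9.30 at a summit 884 to 930 bp upstream of the annotated start, with a weaker summit 33 to 139 bp downstream (5.07, 4.13, 4.47 and 3.91). Col8a2 had none in Cho replicate 1 and 9.53, 8.69 and 9.40 in the others.

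The fibril-associated chains spanned the whole range. Col12a1, a chain of tendon, ligament and perichondrium, had the highest promoter value of Cho replicate 1 among the collagens, 20.7, with 10.7 in WT and 9.30 in the enhancer-deletion library. Its record starts 2314 bp farther upstream in the annotation used for Cho replicate 2, which had no call there but had a peak of 12 at the same distance from the gene's end. Col16a1 had 7.18, 13.4, 10.3 and 8.47 and the highest pileup over background of any collagen promoter in Cho replicate 2, 106.0. Col19a1 had 8.45, 11.8, 7.28 and 7.69, but the record for Cho replicate 2 starts 4657 bp farther upstream, and at the place matched from the gene's end that library had no call. Col14a1, a chain of skin and tendon, was weak at 3.38, 5.79 and 5.10, and in the enhancer-deletion library its nearest summit, of 9.68, lay 1227 bp upstream. Col22a1, known from tissue junctions, had 3.80, 5.94 and 8.47 in Cho replicate 1, WT and the enhancer-deletion library, at a start that lies 116752 bp inside the longer record used for Cho replicate 2. At that place Cho replicate 2 had a peak of 5.99. Col20a1 was called at its record's start in the enhancer-deletion library alone, at 3.06, and at the place matched from the gene's end, 3217 bp inside the longer record, Cho replicate 2 had a peak of 2.72. With starts matched in this way Col4a4 lost its call in Cho replicate 2, the library had 25 collagens called, and 18 were open in all 4 libraries. Starts of all genes were not matched in this way, so these counts show nothing particular to the collagens.

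Of the transmembrane chains, Col23a1 had 7.60, 17.5, 8.17 and 11.3, Col25a1 had 6.33, 12.5, 5.63 and 8.61, and Col13a1 had 5.07, 8.11, 6.87 and 8.68 at a summit 611 to 709 bp inside the gene. Col17a1, the hemidesmosome chain of basal keratinocytes, had no promoter peak, and its nearest summit was 5139 to 5161 bp upstream in Cho replicate 1, WT and the enhancer-deletion library and 3296 bp downstream in Cho replicate 2. The multiplexins Col15a1 and Col18a1, basement membrane proteoglycans, were open in all 4 libraries, at 4.22, 10.9, 4.37 and 7.20 and at 3.80, 10.8, 6.47 and 12.8.

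Most collagen promoters were poor in CpG pairs, and the CpG-poor ones were open at a larger share than CpG-poor promoters of other genes. The ratio of observed to expected CpG pairs over the 250 bp before and 50 bp after the TSS had a median of 0.54 in the collagens and 0.56 in all genes, and 11 of 31 collagens (35.5%) reached 0.6, called CpG-rich here, against 47.4% of all genes. Among the 20 CpG-poor collagens, 13 had a promoter peak in Cho replicate 1 (65.0%, against 29.4% of CpG-poor genes), 14 in Cho replicate 2 (70.0% against 41.4%), 13 in WT (65.0% against 33.5%) and 15 in the enhancer-deletion library (75% against 41.4%). Of these 20, 10 were open in all 4 libraries (50%, against 24.6% of CpG-poor genes). The 20 were a chosen list and not independent of each other, since Col4a3 and Col4a4 share a peak, and the difference was not tested. The 11 CpG-rich collagens were open at 8, 10, 10 and 11 promoters, where 90.9%, 90.6%, 93.7% and 97.0% of CpG-rich genes were. Col5a2, Col6a2, Col6a3, Col6a1 and Col3a1, all open in every library, had ratios of 0.10, 0.25, 0.18, 0.29 and 0.00. The other CpG-poor collagens open in every library lay nearer the cut of 0.6. They were Col16a1 and Col19a1 (both 0.59), Col4a5 (0.55), Col8a1 (0.54) and Col18a1 (0.52). No other cut was tried, and ratios within the CpG-poor class were not matched between collagens and all genes. The 3 genes with no peak at the record's start had 0.17 (Col4a6), 0.19 (Col17a1) and 0.00 (Col28a1) there. Low CpG content at that start was thus met both in collagens called and in collagens not called at it. Other transcript starts were not measured for CpG. The GC box was found in 17 of 31 collagen promoters (54.8%, against 46.1% of all), CCAAT on either strand in 11 (35.5% against 38.5%) and TATAAA in 4 (12.9% against 13.0%).

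**Figure D2:**
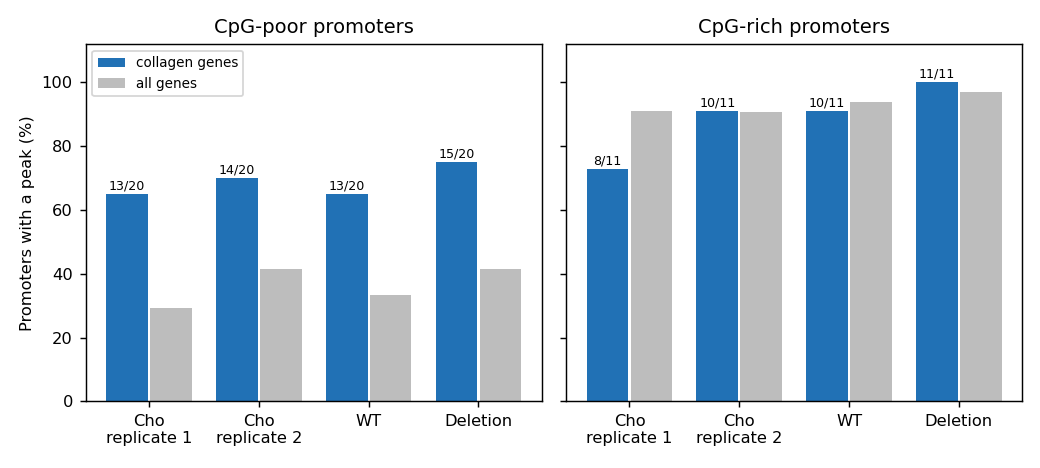
Percent of promoters with a peak (y axis) in each library (x axis) among CpG-poor promoters (left) and CpG-rich promoters (right), for the collagen genes (blue, with counts) and all genes (grey). Among CpG-poor promoters the collagen bars were higher in all 4 libraries, for example 65.0% against 33.5% in WT.

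Collagen genes are long, with a median of 128962 bp in NCBIM37 against 17757 bp over all genes, so peaks around them were counted per 100 kb of locus, taken as the gene body with 50 kb on each side. The median density of the 31 loci was 5.93, 11.7, 6.51 and 12.3 peaks per 100 kb, against 4.42, 9.03, 5.84 and 10.5 over all genes. The number of collagens above the median of all genes was 21, 19, 20 and 20 of 31, where a median leaves about as many genes above as below. With 10 kb flanks the number was 18, 17, 17 and 18, and with no flank 25, 21, 24 and 22. With equal numbers of strongest peaks it was 21, 18, 17 and 19. The loci differed among themselves far more than the medians of collagens and all genes did. In WT the densest were Col4a2 (15.6), Col8a2 (14.9), Col16a1 (14.5), Col27a1 (13.1) and Col6a3 (13.0), and the sparsest were Col4a5 (1.59), Col4a6 (1.96), Col4a3 (2.55), Col25a1 (3.08) and Col19a1 (3.29). Col4a5 and Col4a6 were also sparse in the other libraries, at 1.91 and 2.45 in Cho replicate 1, 1.91 and 2.94 in Cho replicate 2 and 2.87 and 3.43 in the enhancer-deletion library. Col4a5, Col25a1 and Col19a1 thus had an open promoter in a sparse locus. The adjacent pairs differed again, since Col4a1 had 10.3, 17.7, 12.1 and 19.1 where Col4a3 had 2.13, 5.95, 2.55 and 7.23. Col4a4, the partner of Col4a3, lay between them at 2.96, 9.64, 5.93 and 12.3. It was above the median of all genes in every library but Cho replicate 1.

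**Figure D3:**
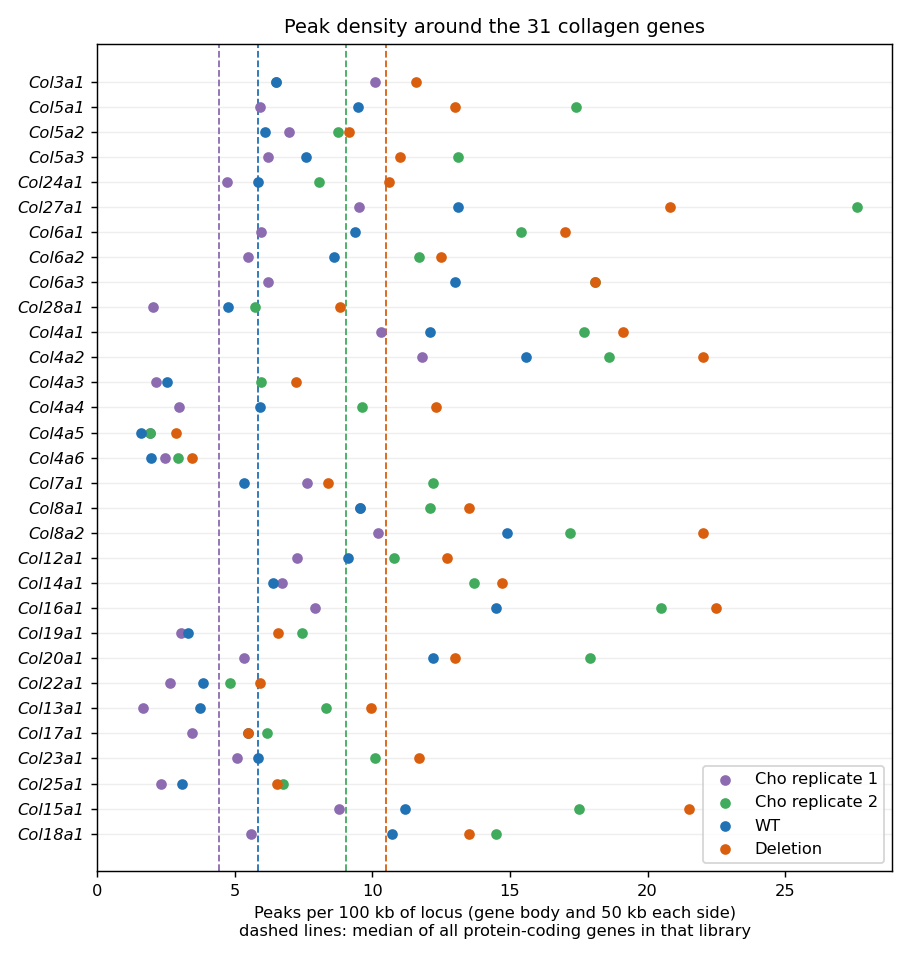
Peaks per 100 kb of locus (x axis) for 31 collagen genes (y axis, grouped by class), with a point for each of 4 libraries. Dashed lines are the medians of 18098 genes in the library of the same colour. Col27a1 reached 27.6 in Cho replicate 2, and Col4a5 and Col4a6 stayed between 1.59 and 3.43 in all 4.

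Inside the genes and over 1 kb from the start of every annotated gene there were 200, 414, 258 and 445 peaks, in 29, 29, 29 and 30 of the 31 genes. For Cho replicate 2, the positions of a RefSeq promoter list also counted as starts, so its rule differed from that of the others. Of all genes, 42.1%, 56.7%, 45.4% and 58.3% held such a peak, but most genes are shorter. Pooled over gene length, the collagens had 4.55, 9.14, 5.87 and 10.1 such peaks per 100 kb, and all genes 3.27, 6.77, 3.69 and 7.45. The ratio was 1.39 (1.21 to 1.60), 1.35 (1.22 to 1.49), 1.59 (1.40 to 1.79) and 1.36 (1.24 to 1.49), with intervals for counting error only. These peaks were no stronger than those of other genes, with median fold enrichments of 5.91, 7.15, 6.21 and 5.87 against 5.91, 7.44, 6.62 and 6.15. In the 3 libraries with NCBIM37 positions, 189, 248 and 428 lay in introns and 11, 10 and 17 in exons (Cho replicate 1, WT, deletion). Col6a2, the gene with no such peak in any library, is a short one at 27869 bp.

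Of the 258 peaks in WT, 109 (42.2%, exact interval 36.1% to 48.5%) were met in all 4 libraries and 13 (5.04%) in WT alone. These shares were not taken over all genes, so they show nothing particular to the collagens. Cho replicate 1 held 134 of them (51.9%), and 52.1% of the peaks of this kind in all genes. The deletion library held 241 (93.4%, 89.7% to 96.1%), and 95.6% of those in all genes.

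Col27a1 had the most such peaks for its length in Cho replicate 1 and WT, and was second to Col16a1 (31.1 and 27.2 per 100 kb) in Cho replicate 2 and the enhancer-deletion library. It held 18, 35, 22 and 31, or 14.9, 28.9, 18.2 and 25.6 per 100 kb. Its 22 WT peaks included 12 that all 4 libraries had. The highest in Cho replicate 1 was 97.7 kb from the TSS, at a fold enrichment of 27.9 there against 8.14, 6.96 and 6.51 in the others, whose pileup over background was 128.0, 83.2 and 70.3, against 47.5 in Cho replicate 1. The highest pileup in WT lay 102.2 kb from the TSS, with 20.3, 9.61, 10.3 and 10.6 and pileups over background of 103.0 in WT and 94.2 in the enhancer-deletion library. A peak 39.9 kb from the TSS was missing from Cho replicate 1 and had 14.1, 12.9 and 12.3 in the others. The peaks 77.3 kb and 109.6 kb from the TSS were met in all 4, at 11.8, 12.5, 13.2 and 12.5 and at 13.9, 10.4, 7.21 and 13.6. The strongest peaks in introns of Col27a1 were therefore above those near its start, which stayed at or under 6.98. The peak about 1.4 kb from the record's start is among the 22, since distance was taken from gene records.

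**Figure D4:**
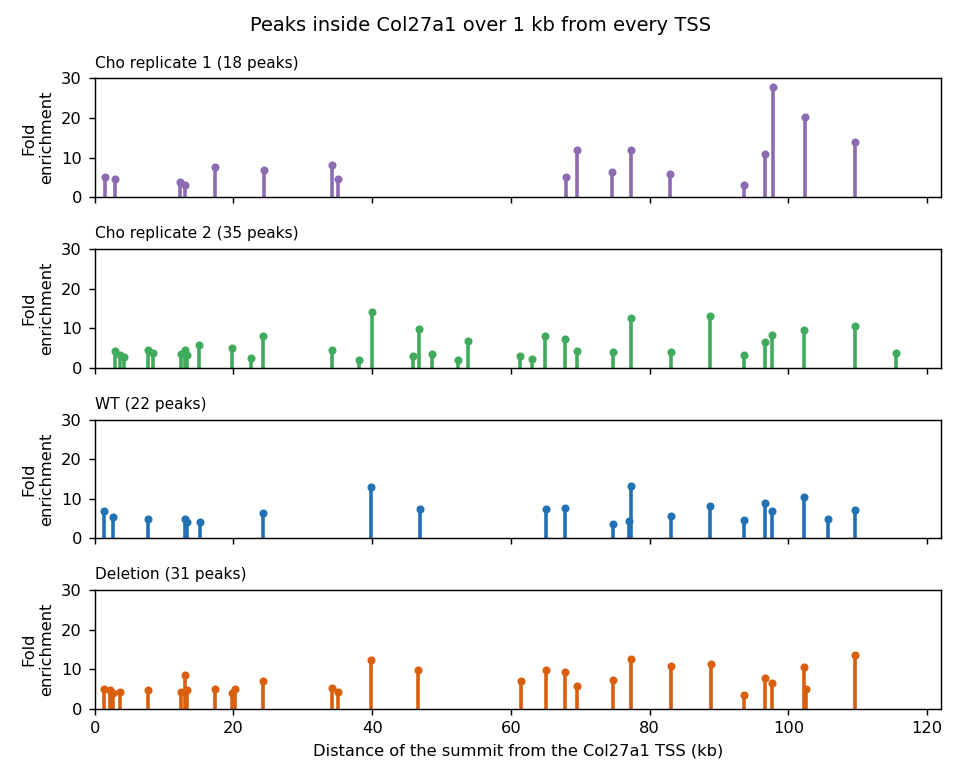
Peaks inside Col27a1 over 1 kb from every gene start, as fold enrichment (y axis) against distance of the summit from the TSS in kb (x axis), 1 panel for each library. For Cho replicate 2, positions of a RefSeq promoter list also counted as starts. All 4 panels have peaks near 77.3, 97.6, 102.2 and 109.6 kb, and the peak near 39.9 kb is missing from Cho replicate 1.

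The strongest peaks inside the collagen genes included some in genes with no promoter peak. In WT and in the enhancer-deletion library the highest fold enrichment was in an intron of Col4a6, 110.5 kb from the TSS, at 17.6 and 24.1, with 13.9 in Cho replicate 1 and 36.1 in Cho replicate 2. Col17a1 had a peak 33.0 kb from its TSS with 7.18, 29.7, 17.1 and 14.8. Col4a3 had one at 10.5 kb with 30.8, 17.0 and 18.6 and none in Cho replicate 1. None of these 3 genes had a peak at the start of its record in WT.

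Other genes joined them. The strongest of Col5a3 lay 20.7 kb from the TSS, at 11.4, 27.4, 16.7 and 18.0, and pileups over background of 19.0, 194.0, 99.9 and 83.0. Col23a1 had one about 250.1 kb from the TSS at 9.29, 39.3, 16.4 and 17.8, the highest value of Cho replicate 2, and one at 18.6 kb that led the enhancer-deletion library among its peaks, at 6.76, 12.2, 10.3 and 21.1. Col25a1 (148.8 kb) and Col4a4 (110.1 kb) had 31.9 and 31.3 in Cho replicate 2, 13.7 and 10 in WT, 15.4 and 14.3 in the enhancer-deletion library, and no peak in Cho replicate 1. Col25a1 had another at 232.6 kb, with 6.09, 14.8 and 20 in Cho replicate 2, WT and the enhancer-deletion library. Col4a2 (87.6 kb) and Col7a1 (24.6 kb) had 18.8 and 18.6 in the enhancer-deletion library, 13.5 and 11.5 in WT, 22.1 and 20.04 in Cho replicate 2 and 4.65 and 10.6 in Cho replicate 1.

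Cho replicate 1 put other peaks on top. Its 5 highest were in Col24a1 (29.6, 128.2 kb from the TSS), Col19a1 (28.7, 33.7 kb), Col22a1 (27.9, 171.1 kb), Col27a1 (27.9, 97.7 kb) and Col15a1 (26.2, 102.9 kb). In WT the same peaks had 8.70, 9.42, 5.15, 6.96 and 4.88, and in the enhancer-deletion library 11.8, 12.4, 10.5, 6.51 and 7.22. The order of the intronic peaks therefore differed between libraries. Col24a1 held another, at 178.8 kb, with 7.18, 34.9, 12.9 and 17.1.

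The summits of the 5 peaks of highest fold enrichment in WT are shown because they carry the strongest signal inside these genes, with the Col27a1 peak of highest pileup in WT, which was chosen after the values were seen. Each is 101 bp centred on the WT summit, in NCBIM37, read on the gene's strand. Capitals mark TGANTCA, the core bound by AP-1 factors, and a loose core of the CTCF motif (CCA and AG with any pair of bases between them, then any pair and G) that was chosen after the sequences were seen. ACAATG and ACAAAG (Sox cores), TGTGGTT (Runx) and GGAATG (Tead) were also searched on both strands, and no motif holds another.
Col4a6 intron, chrX:137798019-137798119, minus: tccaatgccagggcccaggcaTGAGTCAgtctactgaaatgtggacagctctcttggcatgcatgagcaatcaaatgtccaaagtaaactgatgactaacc
Col17a1 intron, chr19:47733500-47733600, minus: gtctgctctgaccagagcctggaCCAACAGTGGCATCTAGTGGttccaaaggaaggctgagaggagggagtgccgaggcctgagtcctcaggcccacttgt
Col4a3 intron, chr1:82593950-82594050, plus: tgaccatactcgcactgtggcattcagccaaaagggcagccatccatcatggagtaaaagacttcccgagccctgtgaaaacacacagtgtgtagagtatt
Col5a3 intron, chr9:20598802-20598902, minus: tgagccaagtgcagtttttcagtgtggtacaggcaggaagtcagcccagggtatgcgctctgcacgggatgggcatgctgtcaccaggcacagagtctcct
Col23a1 intron, chr11:51353247-51353347, plus: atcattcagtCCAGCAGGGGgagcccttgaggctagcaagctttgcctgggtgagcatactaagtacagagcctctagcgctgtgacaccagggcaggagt
Col27a1 intron at 102.2 kb, chr4:62977207-62977307, plus: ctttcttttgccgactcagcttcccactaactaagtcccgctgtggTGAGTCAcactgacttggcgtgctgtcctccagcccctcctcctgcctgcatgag
In Col17a1 the capitals are 2 adjacent matches, on opposite strands. Those of Col4a3 and Col5a3 held none of the motifs.

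Over all 258 intragenic peaks of WT, within 100 bp of the summit, TGANTCA was found in 66 (25.6%), against 23.2% of the 71709 WT peaks over 1 kb from every gene start. A Sox core was found in 54 (20.9% against 19.6%), TGTGGTT in 30 (11.6% against 9.35%), GGAATG in 56 (21.7% against 20%) and the CTCF core in 66 (25.6% against 22.1%). Of the 22 peaks of Col27a1, 4 held a Sox core and 6 held TGANTCA.

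The remaining question was whether the collagen loci looked different in the library from mice without E160 and E308. The 31 loci merged into 26 regions with 491 peaks in WT and 804 in the enhancer-deletion library. Of these, 467 from WT had an overlapping peak in the enhancer-deletion library (95.1%, exact interval 92.8% to 96.8%), near the 95.9% of all WT peaks. Of the deletion peaks, 449 overlapped a WT peak (55.8%, 52.3% to 59.3%), against 49.4% of all. The deletion list was the longer one, so these shares differ by construction.

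At the 467 shared peaks, summit pileup over background had a median log2 ratio of deletion to WT of -0.03 (middle range -0.28 to 0.29), and -0.01 over all 87274 shared peaks. It was at least 2-fold higher in the enhancer-deletion library at 16 peaks (3.43%, against 3.6% of all shared peaks) and at least 2-fold lower at 3 peaks (0.642%, against 1.42%). Centring on all promoters called in both libraries moved the split to 34 higher and 1 lower, with a median of 0.23, so the direction of the small median shift depended on the scaling. The shares of all shared peaks were not counted under this centring, so that split shows nothing particular to the collagens. The 77 shared peaks within 1 kb of a TSS had a median of -0.14 and the 390 others 0.01.

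At promoters the collagens differed by less than the counting error. All 22 with a call in both libraries had an interval that included 1, and none reached 2-fold. Of the 11182 promoters of all genes called in both, 36 were at least 2-fold higher and 32 at least 2-fold lower. The lack of such a change thus shows nothing particular to the collagens. Intervals were not counted over all genes, and Col4a1 and Col4a2, which share a peak, were both counted. The collagen ratios ran from 0.576 to 1.66, with a median log2 of -0.13 against -0.26 over the 11182 promoters. The extremes were Col24a1 and Col4a5 at 0.576 (0.226 to 1.46 and 0.246 to 1.35) and Col18a1 at 1.66 (0.715 to 4.28), on pileups of 8 fragments in WT and 23 in the enhancer-deletion library. The 4 best covered of them in WT had 0.723 (0.475 to 1.11) at Col5a1, 0.827 (0.540 to 1.28) at Col12a1, 0.768 (0.497 to 1.19) at Col16a1 and 0.740 (0.465 to 1.19) at Col6a1.

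**Figure D5:**
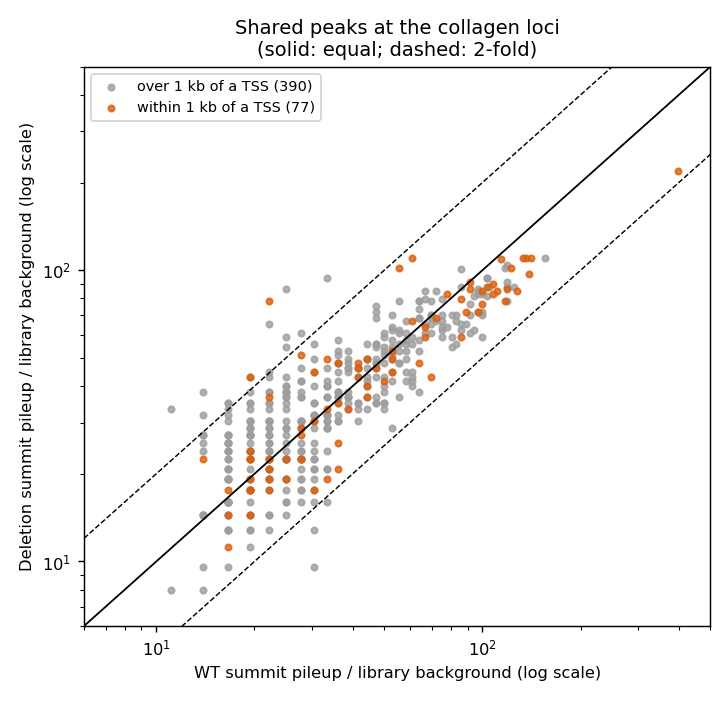
Summit pileup over library background in WT (x axis, log scale) and in the enhancer-deletion library (y axis, log scale) for the 467 shared peaks at collagen loci, 77 within 1 kb of a TSS (orange) and 390 farther away (grey). The solid line is equality and the dashed lines are 2-fold. The points follow the solid line, with 16 at or above the upper dashed line and 3 at or under the lower.

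The largest differences rested on small pileups or on peak edges. The highest ratio was 3.53 (1.66 to 8.62), at an intron of Cox7a2 in the Col12a1 locus, 391 bp from a gene start. Next came 3.45 (1.69 to 7.96) at an intron of Slc19a1 in the Col18a1 locus. At these peaks the summits of the 2 libraries were 364 and 241 bp apart. At an intron of Col23a1 the ratio was 3.02 (1.02 to 12.1), from 4 fragments in WT and 21 in the enhancer-deletion library, with summits 15 bp apart. The lowest were 0.314 (0.0954 to 0.926) at an intron of Col14a1, from 11 fragments in WT and 6 in the enhancer-deletion library, 0.419 (0.146 to 1.14) between genes at Col22a1, and 0.480 (0.186 to 1.21) at an intron of Col12a1. When each deletion peak was paired once, with its strongest WT peak, 446 pairs were left and 6 were at least 2-fold higher (1.35%, against 1.93% of all such pairs).

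Other peaks at these loci were present in only 1 of WT and the enhancer-deletion library. In WT the strongest had 17 fragments between genes at the Col6a2 and Col6a1 locus, 12 in an intron of Col27a1 (chr4:62980726-62980818) and 9 between genes at Col8a1. In the enhancer-deletion library they had 38 fragments between genes at Col8a2 and 26 in an intron of Col5a1 (chr2:27747787-27747964). Another with 26 lay in an intron of Sfr1 in the Col17a1 locus, 403 bp from a gene start. Cho replicate 1, also from NCBIM37, had a peak at all 3 of the latter and at none of the WT peaks.

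Of 27 processing genes, which hydroxylate, fold, cut or crosslink the chains, 26, 22, 25 and 25 had a promoter peak, 21 had one in all 4 libraries and Fkbp14 had none. Another 6 of that list (P3h1, P3h2, P3h3, Colgalt1, Colgalt2 and Mia3) were not matched by symbol and not analysed here. Of 7 receptor genes, 4, 6, 6 and 6 had one, and 3 had one in all 4 libraries. The 9 cartilage and bone collagen genes were open at 5, 8, 8 and 9 promoters, with Col10a1, the collagen of hypertrophic chondrocytes, called in the enhancer-deletion library alone.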

How the data were processed

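ATAC-Seq peak lists of 4 libraries were used. Per the labels and methods, the authors trimmed reads with fastp, aligned with Bowtie2 2.4.4, removed duplicates with Picard (2.20.7 in the submitters' processing notes, which also name SAMtools 1.9, and another version in the methods) and called peaks per library with MACS2 2.2.4. The deposited values are fold enrichment, a ratio of summit pileup to local background, and −log10 p-values and q-values. The depth in reads is unknown. The build is stated as mm9, and 3 lists were read in NCBIM37 (GENCODE genes). Positions in Cho replicate 2 matched GRCm38 (RefSeq genes), so no coordinates were compared with it, only distances from gene ends within 150 bp.

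Entries with the same interval were reduced to the strongest summit. Pileups were solved from fold enrichment and p, and divided by each library's most frequent background. Of 4 libraries, each genotype had 1, so no test was made, and exact binomial 95% intervals cover counting error only. Promoters were summits within 1 kb of a gene record's start, loci added 50 kb flanks, and shared peaks overlapped by at least 1 bp. Among genes, all 31 collagens were named. Peaks were named as the 5 highest in fold enrichment inside collagen genes in each library, the 3 highest and 3 lowest ratios, and the 3 strongest found in 1 genotype alone. Single peaks of Col27a1 were chosen after their values were seen. Collagens and comparison lists were chosen with earlier results of these data known. Python 3.11.15 with numpy 2.4.6, pandas 2.3.3, scipy 1.17.1 and pysam 0.24.0 was used, and scripts were tested on simulated data.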

Additional observations from a re-analysis of the deposited data

How the results depend on the processing

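Of 96 alternatives to 19 results, 78 stayed within the spread allowed (1.5-fold for counts) and 18 moved, counts being judged without their background. Requiring 50% reciprocal overlap lowered the share of WT peaks found in the deletion library to 71.7% and of deletion peaks found in WT to 43.8%, and equal numbers of strongest peaks gave 82.9% and 82.4%. The median log2 ratio of deletion to WT became 0.25 with fold enrichment, 0.76 with −log10 q, 0.23 when centred on promoters and 1.6 with Cho replicate 1 as the reference. As reported it was -0.03, so its sign changed with each of these. The peaks at least 2-fold higher became 34 (7.28%, against 7.79% of all shared peaks), 168 (36.0% against 36.8%) and 34 with the first 3 of these, 227 of 309 (73.5% against 66.6%) with the last and 6 among mutual strongest pairs (added after seeing the data), and those lower became 0, 1 and 1. At 1.5-fold, 59 were higher and 36 lower. The shares of all shared peaks were not counted at 1.5-fold or with the centring on promoters. The cause was not tested. Collagens with a promoter peak in all libraries kept numbered 20 without Cho replicate 1 and 19 without Cho replicate 2, and the count for Cho alone became 24 and 21. The share of all genes was not counted for the 20 and 19, and was 64.7% and 58.6% for the 24 and 21. With a −log10 q of at least 5 the collagen share fell below that of all genes in Cho replicate 1 (14 collagens, 45.2% against 52.6%) and in all 4 libraries together (12, 38.7% against 47.5%), as it did for all 4 with equal numbers of peaks (15, 48.4% against 49.7%). In the other settings where all genes were counted it stayed above. Equal numbers of peaks left 199 of 414 peaks inside collagen genes in Cho replicate 2 and 194 of 445 in the deletion library, and −log10 q of at least 5 left 170 of 258 in WT. No paired analysis was possible because no result came from a test and the genotypes had 1 library each. Pileups of few fragments limit every ratio.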
